A study of Saccharomyces cerevisiae with 30 samples.

Results

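Ribosome biogenesis genes were taken by name: the 61 genes of the deposited expression table called UTP, RRP, NOP, NOC or DBP with a number, out of 6932 features. There were 17 UTP, 17 RRP, 15 NOP, 9 DBP and 3 NOC genes. Binding was mapped by calling cards for 28 transcription factors, with 1 library each, and RNA with a polyA tail was sequenced from a rich and a nitrogen-starved culture medium, also with 1 library each. In calling cards the factor is fused to Sir4, to which the retrotransposon Ty5 is drawn, and new Ty5 copies mark where the factor was. The yeast was Σ1278b, a strain that forms filaments when nitrogen is scarce. Cells for the insertion libraries grew in synthetic low-ammonium medium, and Ty5 was induced with 2% galactose. All libraries, the RNA libraries included, carry the same growth and induction text in their labels. For the 2 RNA media the carbon source is not stated there. Without replicates no change in RNA could be tested, and every interval on insertions covers counting error only.

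Ribosome assembly starts in the nucleolus, where RNA polymerase I makes a long precursor RNA that is cut, modified and folded while ribosomal proteins are added. The UTP proteins form the small subunit processome, which gathers in the modules UTP-A, UTP-B and UTP-C on the front of the precursor. NOP and NOC proteins include core proteins of small nucleolar ribonucleoproteins and factors of large subunit assembly. The RRP genes were named for rRNA processing and include subunits of the exosome, the complex that trims RNA from its 3′ end. DBP genes encode DEAD-box helicases. In budding yeast these genes are known as a regulon that is lowered when growth slows, with Sfp1, Stb3, Dot6 and Tod6 among its regulators.

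In the nitrogen-starved library 60 of the 61 genes had a lower RPKM (reads scaled to gene length and to the mapped reads of the library) than in the rich library. DBP1 was the only one with a higher value. The median log2 change, log2((starved RPKM + 1)/(rich RPKM + 1)), was -0.59 over the 61 genes and 0.01 over the 6122 features with at least 5 RPKM in 1 medium, a filter that all 61 genes passed. The shift was shallow and even: the median difference was 1.51-fold, the largest 1.78-fold, and 53 genes lay between 1.3- and 1.8-fold lower. Lower values of any size were found in 49% of all features tested.

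At a threshold of 2-fold, 0 of 61 genes were lower, against 4.05% of all features, and 0 were higher, against 10.8%. At 1.5-fold, 31 genes were lower, against 12.4% of all features, and 0 were higher, against 18.5%. The SD of the log2 change over the 61 genes was 0.185, and over all features it was 0.940. Lists set beside the family below were also narrow. Their SD was 0.199 for other ribosome biogenesis genes, 0.176 for mitochondrial and 0.288 for cytosolic ribosomal protein genes. With 1 library per medium these are counts past a fold and not tests. RPKM is a share of the mapped reads, so a smaller share of the RNA and less RNA per cell cannot be told apart.

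**Figure D1:**
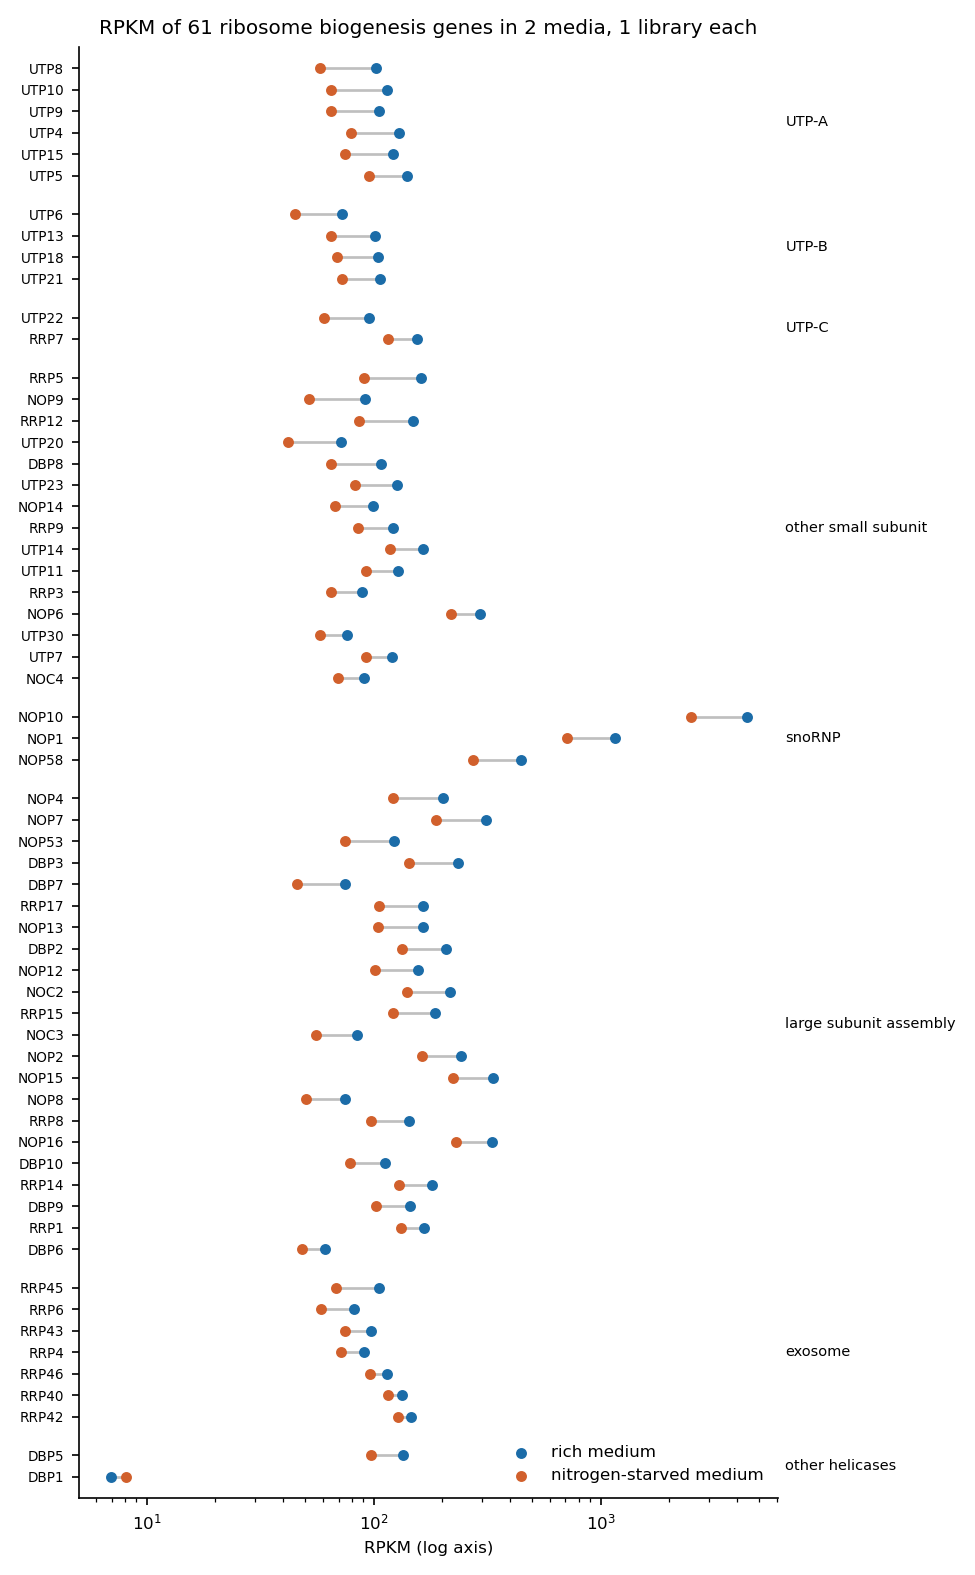
RPKM of each of the 61 genes on a log axis, in rich (blue) and nitrogen-starved (orange) medium, 1 library each, ordered by role and, within a role, by the log2 change. The starved point lies left of the rich point for 60 genes, and the distance between the points is similar for genes whose levels differ widely.

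The modules of the small subunit processome came first in the order of assembly. All 6 UTP-A genes were lower, with a median log2 change of -0.70, and 5 of them were at least 1.5-fold lower. UTP8 had 103 RPKM in rich and 57.8 in starved medium, a log2 change of -0.82. UTP10, whose product is the largest protein of the module, had 114 and 65.2 RPKM. The smallest change in UTP-A was that of UTP5, with 141 and 95.01 RPKM and a log2 change of -0.56. Of the 4 UTP-B genes, 3 were at least 1.5-fold lower, from UTP6 with 72.6 and 45.0 RPKM to UTP21 with 107 and 72.7 RPKM. UTP-C held UTP22, with 95.6 and 60.5 RPKM, and RRP7, with 155 and 116 RPKM.

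Other small subunit factors spread more widely. The 15 genes had a median log2 change of -0.50, with 6 of them at least 1.5-fold lower. RRP5, an RNA-binding protein needed for the precursor cuts of both subunits, had the largest difference of the 61 genes, with 161 RPKM in rich and 90.6 in starved medium (log2 change -0.82). NOP9, a protein with pumilio-like repeats, had 92.0 and 51.9 RPKM. RRP12, which helps to export both subunits from the nucleus, had 149 and 86.3 RPKM, and the large scaffold protein gene UTP20 had 71.6 and 42.0 RPKM. At the other end NOC4, which acts in a complex with Nop14, had 90.7 and 69.5 RPKM, a log2 change of -0.38.

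Core proteins of the small nucleolar ribonucleoproteins had the highest levels. NOP10, part of the H/ACA particles that guide pseudouridylation, had 4402 RPKM in rich and 2503 in starved medium, on a gene of only 177 bp. NOP1, the box C/D methyltransferase known as fibrillarin, had 1158 and 711 RPKM. NOP58, its partner in the C/D core, had 444 and 275 RPKM. All 3 were at least 1.5-fold lower, with log2 changes of -0.81, -0.70 and -0.69. NOP15 with 334 RPKM and NOP16 with 331 RPKM, both large subunit factors, were next in rich medium, and had 224 and 230 RPKM when starved.

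The 22 genes of large subunit assembly had a median log2 change of -0.60, and 12 of them were at least 1.5-fold lower. NOP4 had 203 and 122 RPKM, the largest change of the group at -0.73. NOP7, of the complex with Erb1 and Ytm1, had 312 and 189 RPKM. NOP2, an rRNA cytosine methyltransferase, had 243 and 163 RPKM. DBP6, a helicase of early large subunit particles, was nearest to no change, with 60.9 and 48.3 RPKM and a log2 change of -0.33. DBP7, another such helicase, had 74.6 and 45.8 RPKM. DBP2 lies with its intron in a span of 2645 bp, and whether its RPKM was scaled to that span or to its mRNA is not known.

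Among the roles in ribosome assembly, exosome subunits sat closest to the median of all features. All 7 were lower, with a median log2 change of -0.33, but only RRP45 was lower by 1.5-fold, with 106 and 68.1 RPKM. RRP42, like RRP45 a subunit of the ring, had 146 and 128 RPKM (log2 change -0.18). RRP40, of the RNA-binding cap, had 133 and 116 RPKM, and RRP46 of the ring had 114 and 96.7 RPKM. The ranges of the roles overlapped, since RRP45 at -0.63 passed the median of the large subunit genes. No difference between roles was tested.

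A pair of helicases in the name family have their main roles elsewhere. DBP5, which acts in mRNA export at the nuclear pore, had 135 and 97.7 RPKM, a log2 change of -0.46. DBP1, a near copy of the translation helicase gene DED1, had 6.92 RPKM in rich and 8.10 in starved medium, a log2 change of 0.20. It was the lowest of the 61 genes in rich medium, where the other 60 had at least 50 RPKM. Reads shared with DED1, which had 519 and 451 RPKM, could be split between the copies, so the value of DBP1 is uncertain. RPKM is also uncertain for NOP4, NOP58, RRP17, NOP13, RRP15, RRP9 and RRP14, whose coordinates overlap another feature.

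Level and change were weakly related across genes. The Pearson r between log2 rich RPKM and the log2 change was -0.447 over the 61 genes and -0.244 over the 60 without DBP1, as a description of genes that share both libraries. Rich RPKM enters both values, and error in it alone would push r below 0. Between the log2 RPKM values of the 2 media the Pearson r was 0.987, over genes that run from 6.92 to 4402 RPKM in rich medium.

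The genes around this family were set beside it. Of 86 other ribosome biogenesis genes, 85 were found, and they had a median log2 change of -0.56, with 83 lower, 2 higher and 39 at least 1.5-fold lower. CIC1, a large subunit factor, had 227 and 124 RPKM (log2 change -0.86), while RIO1, an assembly kinase, had 63.1 and 86.0 RPKM (0.44). All 11 RNA polymerase I genes found were lower, 7 of them by at least 1.5-fold, with a median of -0.63. Its initiation factor gene RRN3 had 44.2 and 21.8 RPKM, a log2 change of -0.99. The 138 cytosolic ribosomal protein genes had a median of -0.80, with 134 lower and 11 at least 2-fold lower. Their mitochondrial counterparts lay on the other side: all 54 were higher, with a median of 1.10, and 39 were at least 2-fold higher.

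Genes of known regulators lay on both sides. Of 10 found, 6 were lower and 4 higher, with a median log2 change of -0.12. At 1.5-fold, 0 were lower and 2 higher, against 12.4% and 18.5% of all features. STB3, which encodes a repressor that binds the RRPE promoter element, had 58.2 RPKM in rich and 90.5 in starved medium (0.63). DOT6, which encodes a repressor that binds the PAC element, had 116 and 179 RPKM (0.62). SFP1, an activator gene, had 63.3 and 56.2 RPKM (-0.17), and the kinase gene SCH9 119 and 98.3 RPKM (-0.28). Log2 changes of the others were 0.18 for ABF1, 0.05 for CRF1, -0.08 for IFH1, -0.16 for FHL1, -0.29 for TBF1 and -0.32 for RAP1.

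The media differed in more than these lists. Of 14 genes known to respond to poor nitrogen, 11 passed the RPKM filter, and all 11 were at least 2-fold higher in the starved library. The amino acid permease gene GAP1 had 11.3 and 860 RPKM. Galactose genes were higher too: GAL1 had 9.31 RPKM in rich and 5126 in starved medium, and GAL7 had 2.48 and 2993 RPKM, the largest log2 change of all features at 9.75. Nitrogen and carbon source cannot be told apart as a source of the lower values of the 61 genes.

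**Figure D2:**
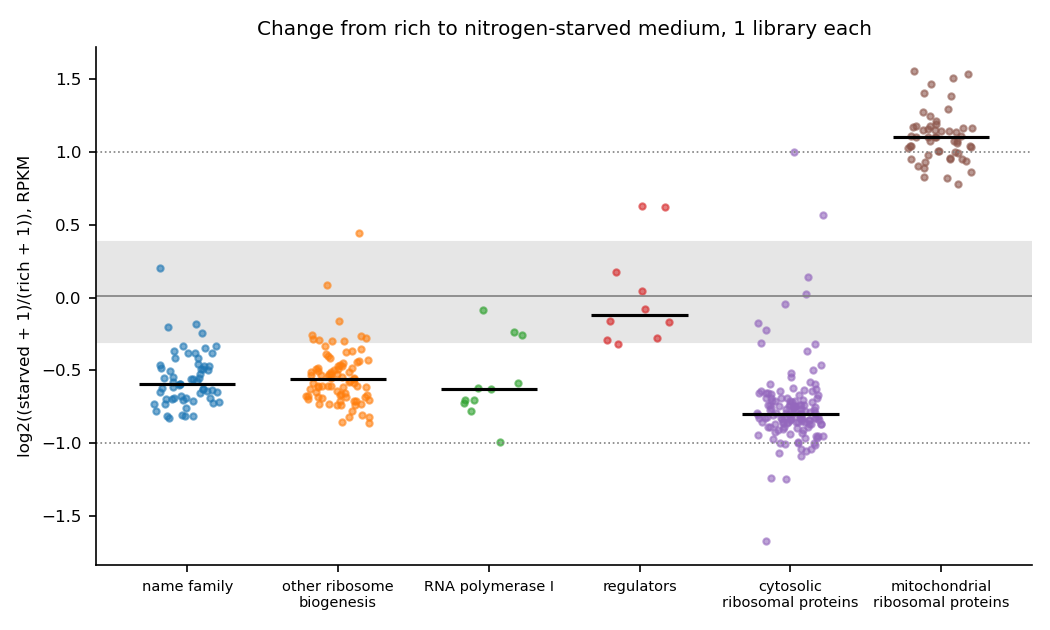
Log2 change of RPKM from rich to starved medium, 1 point per gene, for the 61 genes (name family) and 5 other lists, among genes with at least 5 RPKM in 1 medium. Black bars are medians, the grey band spans the quartiles of all features and the dotted lines mark 2-fold. The name family lies between the dotted lines with a median of -0.59, while the mitochondrial ribosomal proteins lie around 1.10.

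Insertions were counted in the 1200 bp upstream of each start codon. Few fell before these genes. The 28 libraries held 401017 insertions, from 2836 to 41619 per library, and 1626 of them lay upstream of the 61 genes (95% exact Poisson interval 1548 to 1707). The median gene of the family had 18 insertions over all libraries, with quartiles of 12 and 28, while the median of 6444 genes was 30, with quartiles of 17 and 58. A total of 46 of the 61 were below that median of 30. The lowest was RRP4, an exosome cap gene, with 3 insertions, followed by DBP7 with 4 and NOP1 with 5. The highest was NOC4 with 324, and no other gene of the family reached 100. Of the 1708 pairs of a gene and a factor, 1031 (60.4%) held 0 insertions, against 45.8% of the pairs over all genes.

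The lower number was seen library by library. Relative to the mean of all genes, the 61 genes had fewer insertions in 27 of 28 libraries, with a median ratio of 0.396. Skn7, a stress response factor, had 5 insertions upstream of the whole family, 0.761 per 1000 of its insertions and 0.0510 of the mean of all genes. Mit1 had 0.771, Mfg1 0.859 and Sok2 1.20 per 1000. The next to highest library was Hms2 with 8.12 per 1000, a ratio of 0.737. Gcn4, the activator of amino acid synthesis, was the exception with 18.1 per 1000 (95% exact binomial interval 14.2 to 22.9) and a ratio of 1.47. Leaving out NOC4, the Gcn4 value was 5.96 (3.78 to 8.93), and all 28 libraries lay below the mean of all genes, with ratios from 0.0518 to 0.624.

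The mean of all genes includes genes with a great many insertions. Among the 5719 genes that no factor called, the 58 family genes with no call were below the mean in 28 of 28 libraries, with ratios from 0.213 to 0.780 and a median of 0.495. The medians were 17 insertions for these 58 genes and 27 for all uncalled genes. This comparison was chosen after seeing the data.

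**Figure D3:**
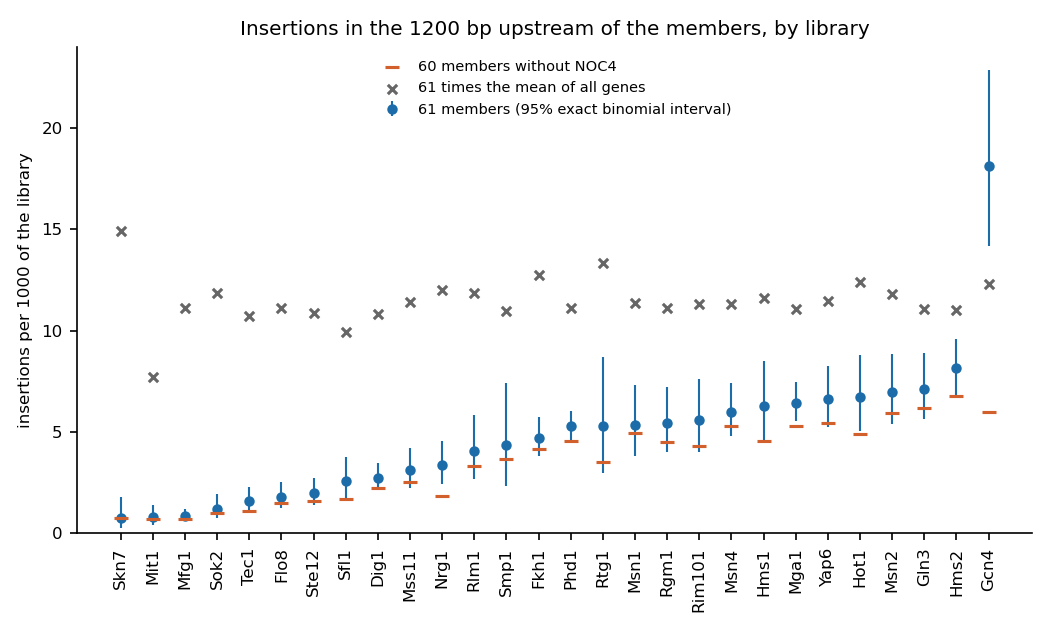
Insertions in the 1200 bp upstream of the 61 genes per 1000 insertions of each of the 28 libraries, ordered by value (blue, with 95% exact binomial intervals), the same for the 60 genes without NOC4 (orange bars) and the value 61 average genes would have (grey crosses). Blue points lie below the crosses in 27 libraries, and the Gcn4 point at 18.1 drops to 5.96 without NOC4.

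Most windows reach past the near edge of the next feature, though that of RRP5, with 1290 bp before its neighbour, does not. The nearest upstream feature lay a median of 327 bp away for the family and 396 bp for all genes. Per kilobase of the space between, the family held 33.9 insertions and all genes 106, with medians per gene of 23.2 and 48.0. Other ribosome biogenesis genes held 50.3 there, RNA polymerase I genes 51.9, and mitochondrial and cytosolic ribosomal protein genes 39.5 and 82.1. The regulators held 246 and the nitrogen genes 233. In the rest of the window, from the near edge of the neighbour on and with the neighbour itself included, the values were 16.2 and 31.2 per kilobase. NOC4 decides much of the first value, which is 10.47 without it, while the value between genes is then 32.9. With windows ended at the neighbour, the medians were 11 insertions for the family and 18 for all genes.

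Within the window a larger share of the family's insertions than of all genes' lay near the start codon. For the 60 genes without NOC4, 508 of 1302 insertions (39.0%) fell 100 to 300 bp upstream, against 23.5% for all genes. The wider stretch of 400 to 1200 bp held 588 of them (45.2%), against 58.8%. These shares pool insertions, so genes with many insertions weigh most. All genes kept theirs, up to 5853 for 1 gene, while NOC4 was left out of the family. No share per gene or among uncalled genes was computed. The peak was 11.4 insertions per 1000 genes and 1000 insertions at 100 to 200 bp, where all genes had 23.0. At 400 to 500 bp the values were 3.94 and 20.2, and at 600 to 700 bp 2.38 and 15.0. The ratio of the family to all genes was highest, at 0.496, in the step of 100 to 200 bp, and lowest, at 0.158, at 600 to 700 bp.

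**Figure D4:**
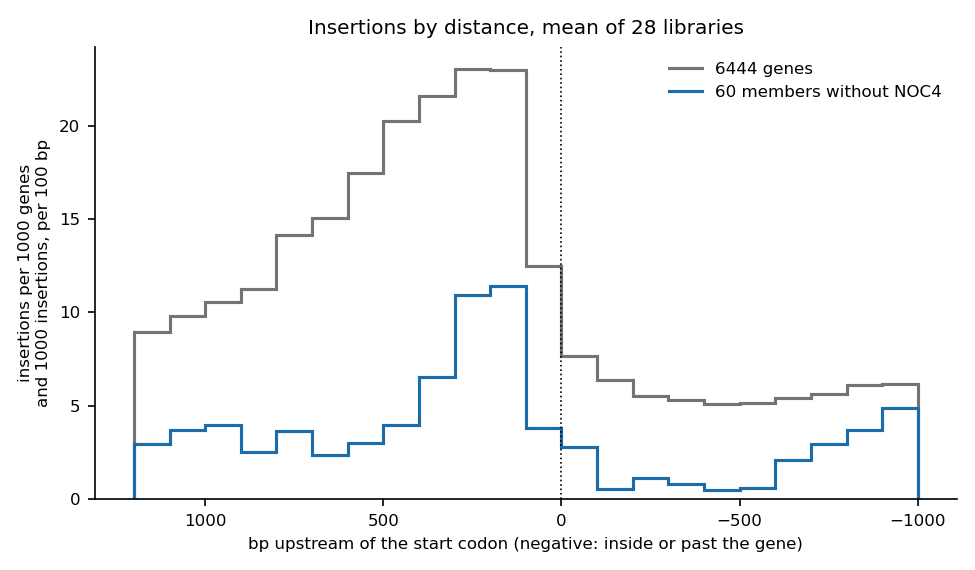
Insertions by distance from the start codon in steps of 100 bp, as the mean of 28 libraries scaled to 1000 genes and 1000 insertions, for the 60 genes without NOC4 (blue) and 6444 genes (grey). The blue line peaks at 11.4 between 100 and 200 bp and is down to 3.94 by 400 to 500 bp, where the grey line is at 20.2. The grey line keeps the genes with the most insertions, which weigh most in it.

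By role, the median number of insertions over all libraries was 16 in UTP-A, 12.5 in UTP-B, 17 for large subunit genes, 18 for the ribonucleoprotein genes, 20 for other small subunit genes and 28 for the exosome. After NOC4, the highest were UTP6 and RRP42 with 87 each. UTP6 shares a stretch of 1020 bp with RPS18A, a ribosomal protein gene transcribed the other way. RRP42 had insertions in 24 of 28 libraries and at most 9 in any of them. Neither had a deposited p-value at or under 0.001 in any library. The other lists had medians of 20 for other ribosome biogenesis genes, 27 for RNA polymerase I, 36.5 for cytosolic and 22 for mitochondrial ribosomal proteins, 57 for the regulators and 169 for the nitrogen genes.

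Calls were taken from the authors' deposited table, at a p-value of 0.001 or less. Of the 1708 pairs of the family 3 (0.176%) were called, against 0.879% of 180600 pairs over all genes. A low share was not particular to the family. It was 0.210% for other ribosome biogenesis genes, 0.132% for mitochondrial and 0.621% for cytosolic ribosomal proteins, and 0 of 308 pairs for RNA polymerase I. The regulators had 3.93% and the nitrogen genes 2.47%. The 3 pairs of the family were NOC4 by Gcn4, RRP40 by Gln3 and RRP15 by Fkh1. Fisher's exact test of each gene and library against the other 27 libraries pooled, one-sided with Benjamini-Hochberg adjustment over all pairs, called 7 pairs of the family (0.410%) at 0.05, against 0.996% of all pairs. It compares libraries and not conditions.

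NOC4 lies on chromosome 16 from 782841 to 784499 on the minus strand (1-based, as in the deposited table, with a genome build not given in the sources used here). In all, the Gcn4 library held 47 insertions upstream of it (95% exact Poisson interval 34.5 to 62.5) at 33 positions, 12.2 per 1000 of the library. In the other 27 libraries there were 277, or 0.697 per 1000. Over the 28 libraries NOC4 had between 0 insertions, in Skn7, and 47, with a median of 9. The authors' deposited table gave the Gcn4 pair a p-value of 3.33e-16, and Fisher's exact test an adjusted p of 6.76e-37. Gcn4 stood well apart: the next highest, Hot1, had 1.81 per 1000.

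The window of NOC4 is also that of ASN1. ASN1, an asparagine synthetase gene of the kind Gcn4 is known to activate, starts at 785697 and is transcribed the other way, with 1197 bp between the start codons. The windows of both genes held the same number of insertions in 28 of 28 libraries. Of the 47 Gcn4 insertions, 45 lay 850 to 1100 bp from NOC4, which is 97 to 347 bp from ASN1, with bounds chosen after seeing the positions. In the other libraries 131 of 277 lay there. The gene of a small nucleolar RNA, SNR45, stands in the space between, 309 bp from NOC4. NOC4 had a log2 change of -0.38, and ASN1 had 166 and 145 RPKM, a log2 change of -0.19. All of the 5 pairs with the most insertions belonged to NOC4, with 47 for Gcn4, 31 for Mga1, 30 for Phd1, 23 for Hms2 and 19 for Nrg1, and only that of Gcn4 was called.

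**Figure D5:**
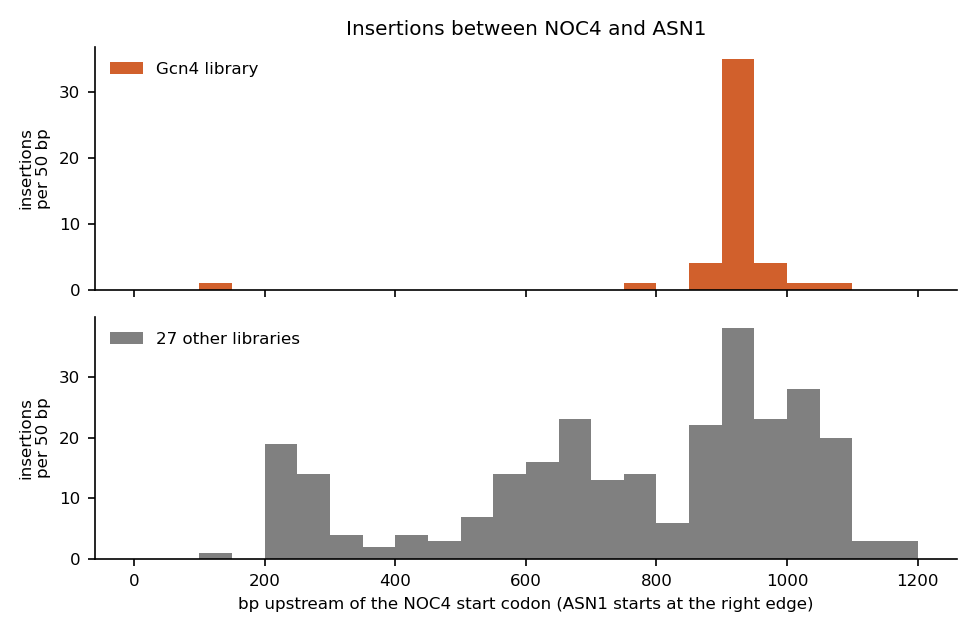
Number of insertions per 50 bp between the start codons of NOC4 (left, 0 bp) and ASN1 (right edge, 1197 bp), in the Gcn4 library (top) and in the 27 other libraries together (bottom). The Gcn4 insertions stand in 1 cluster on the ASN1 side, where 45 of 47 lie. Those of the other libraries spread more widely, with 131 of 277 in the same stretch.

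RRP40 lies on chromosome 15 from 54168 to 54890 on the plus strand. The library of Gln3, the GATA activator of nitrogen genes, held 8 insertions upstream of it (3.45 to 15.8) at 7 positions, 132 to 227 bp from the start codon. The other 27 libraries held 36, or 0.0922 per 1000 against 0.749 in Gln3. Counts of RRP40 ran from 0 to 8 over the libraries, with 6 each in Mga1 and Yap6. In the authors' deposited table the p-value was 0.00029, and Fisher's exact test gave an adjusted p of 0.00347. RIB4, a riboflavin synthesis gene 453 bp away and divergent, had the same deposited p-value of 0.00029. RRP40 had the next to smallest difference among the 60 lower genes, a log2 change of -0.20, and RIB4 had -0.06.

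RRP15, an early large subunit factor gene, lies on chromosome 16 from 781179 to 782157. Fkh1, a forkhead factor of the cell cycle, had 4 insertions upstream (1.09 to 10.2), at 9 to 33 bp. The authors' deposited table gave a p-value of 0.000936, shared with the divergent motor protein gene KAR3, while Fisher's exact test gave an adjusted p of 0.956. The table lists the same coordinates for RRP15 and the opposite feature YPR142C, so the start used here is uncertain. In 5 libraries the RRP15 window held 0 insertions where the deposited p-value was below 1, which was seen for no other gene of the family.

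Fisher's exact test called 5 further pairs, each with few insertions. Hms2 had 9 of the 19 insertions upstream of UTP5 (Fisher's exact test, adjusted p = 7.72e-06), 20.3 times as many per 1000 as the other libraries. Msn2, a general stress factor, had 5 upstream of UTP23 (adjusted p = 0.00238 in the same exact test), and Gcn4 had 5 upstream of RRP46 (0.0111). Yap6 had 4 upstream of UTP9 (0.0124) and Msn4 5 upstream of NOP58 (0.0371). Those of RRP46, at 373 to 597 bp, and of UTP9, at 245 to 751 bp, lay past the near edge of the upstream neighbour, at 278 and 218 bp. For UTP5 the median distance was 625 bp, with the neighbour at 572 bp. Insertions of UTP23 lay 145 to 254 bp away, short of its neighbour at 699 bp. For NOP58 the median was 179 bp and the farthest 1146 bp, with the neighbour at 695 bp. In the authors' deposited table their p-values ran from 0.021 for UTP5 to 0.0794 for NOP58. With each position counted once, UTP5 and UTP23 stayed at or under 0.05, at 0.000143 and 0.0366, and RRP46, UTP9 and NOP58 did not.

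Some of the genes share their upstream space with a gene transcribed the other way. The upstream neighbour was divergent for 27 genes, tandem for 29 and of unknown strand for 5. Where the strand is known, 48.2% of the neighbours were divergent, against 52.1% over all genes. The 27 divergent neighbours had a median log2 change of -0.03, with 14 lower and 13 higher, while the family genes beside them had a median of -0.56. In 12 pairs the family gene was lower and its neighbour higher, in 14 both were lower, and in 3 the neighbour was the more reduced. The 3 divergent neighbours at least 1.5-fold higher were all mitochondrial ribosomal protein genes. MRPS16, beside RRP12 at 372 bp, had 223 RPKM in rich and 499 in starved medium. RSM19, beside DBP6 at 267 bp, had 356 and 1014 RPKM. MRP51, beside DBP1 at 363 bp, had 98.8 and 224 RPKM. In the other direction RPS18A, beside UTP6, had 1240 and 665 RPKM, and GCD10, a tRNA methyltransferase subunit gene beside NOP2, had a log2 change of -0.67. The median number of insertions was 18 for family genes with a divergent neighbour and 30 for all such genes, and 14 and 28 for tandem genes.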

How the data were processed

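The authors deposited, per the file headers, a table of RPKM for 6932 features in 2 RNA libraries, a table of p-values with a row for each of 6450 genes and a column for each factor, and 28 headerless insertion lists of chromosome, position and a whole number, which was taken as a read count of the deposited insertion. Aligner, read filters, genome build and the test behind the p-values are not given in the sources used here. How deep both RNA libraries were is unknown, since low RPKM values did not fall on steps of 1 read.

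Log2 changes used a pseudocount of 1 RPKM, which understates the change of low genes, among features with at least 5 RPKM in 1 medium. Starts were converted to 1-based, and strand was read from systematic names, which gave 6444 genes with a window of 1200 bp. Every listed line counted as an insertion. Lines at 1 position may not be independent, and all intervals and tests cover counting error within 1 library. Fisher's exact test was run on simulated libraries of independent counts. That check does not cover repeated lines at a position, and it does not vouch for pairs with few insertions. RefSeq symbols matched 61 of 61 names, and no RefSeq coordinate was used. The members, roles and lists were chosen with earlier results of these data known. Genes named were the extremes of each role in log2 change, the 5 highest and lowest in rich RPKM, every called gene, the 5 pairs with the most insertions and, since 0 genes passed 2-fold, any other gene of the family. CMS1, TOD6 and 1 nitrogen gene were not found by name. All value columns were used (0 left without a sample). Python 3.11.15, pandas 2.3.3 and scipy 1.17.1 were used.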

Additional observations from a re-analysis of the deposited data

How the results depend on the processing

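No paired analysis was possible because each group has 1 library. The count of 60 lower genes and 1 higher held under pseudocounts of 0.1 and 5 RPKM and after centring on the median of all features. The median log2 change was -0.598, -0.566 and -0.604 in turn, and -0.59 without DBP1 and DBP5, a choice made after seeing the data. The number at least 1.5-fold lower was 31, 28 and 33. No gene passed 2-fold in either direction with no RPKM filter, with a filter of 20 RPKM, without the 7 overlapping genes or under any of these settings; a threshold of 1.5-fold gave 31 lower. Upstream insertions numbered 923 in a window of 600 bp, 839 with windows ended at the upstream gene, 1555 with each position counted once, 1280 with at least 2 reads and 1302 without NOC4, the last chosen after seeing the data. In these settings with NOC4 kept, 27 or 28 of 28 libraries stayed below the mean of all genes, the exception being Gcn4. Called pairs numbered 1 at a deposited p of 0.0001, 1 with adjustment within each factor, 7 by Fisher's exact test, 7 without positions over 10 times richer in another library and 4 with each position counted once. The 7 by Fisher's exact test were 0.410% of the family's 1708 pairs, against 0.996% of all pairs. For the other rules in this list no share over all genes is given, so their counts stand without a background. The planned comparison of promoter motifs (PAC and RRPE) was not run, since no promoter sequences of the genome build behind the deposited coordinates were available here. RNA depth is unknown, so low genes such as DBP1 carry an error that cannot be given; at the median of 18 insertions per gene over 28 libraries, most pairs are too thin to be read alone.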

Other observations

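In RefSeq 4 further genes carry names of these families that the expression table lists under other names. NOP56, listed as SIK1 and the partner of NOP58 in the box C/D core, had 442 RPKM in rich and 251 in starved medium, a log2 change of -0.81. UTP25 had -0.61, RRP36 of UTP-C -0.42 and NOP19 -0.21, so all 4 were lower. They were not counted among the 61 genes.

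Insertions were also sparse inside the genes. The spans of the 61 genes held 397 insertions over all libraries, or 3.58 per kilobase, against 13.1 over all genes, with medians per gene of 2.03 and 7.25. DBP3, NOP10, RRP40 and RRP42 held 0, as did 273 of the 6444 genes, although RRP42 had 87 upstream. The span of NOP10 is only 177 bp. Other ribosome biogenesis genes had 3.05 per kilobase and cytosolic ribosomal protein genes 5.71. The highest value of the family was RRP15 with 56 insertions, 57.2 per kilobase, in the span whose start is uncertain, followed by NOP6 with 21, or 31.0 per kilobase.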
